A study of Mus musculus with 16 samples.

Results

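The miR-99b, let-7e and miR-125a cluster is a set of 3 microRNAs (miRNAs, short RNAs that guide the repression of messenger RNAs) made from neighbouring hairpins in the host gene Spaca6, a protein-coding gene of mouse chromosome 17. Its members (mmu-miR-99b-5p, mmu-let-7e-5p and mmu-miR-125a-5p, written below without the species prefix) were found by their names among the 1247 mouse miRNAs on the array, and all 3 were among the 231 that could be tested. They were read in the virus-transformed mouse macrophage line RAW264.7 on 16 single-colour Agilent miRNA arrays. Th2_IL33 cells were grown for 48 h with interleukin-4 and interleukin-13, the Th2 cytokines, at 10 ng per ml and were then given recombinant mouse interleukin-33 (IL-33) at 20 ng per ml for 4 h. Th2 cells had the same growth without IL-33, Media_IL33 cells were grown in medium alone before IL-33, and Media cells had neither. Each group held 4 arrays, numbered 1 to 4 after 4 independent experiments of the same cell line.

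IL-33 is an alarm cytokine that signals through the receptor ST2 and the adaptor MyD88 to NF-kB, and the Th2 cytokines signal through STAT6 and drive macrophages to alternative activation. The cluster pairs a miR-99 family miRNA, a let-7 family miRNA and a miR-125 family miRNA, an arrangement that is also found in paralogous clusters elsewhere in the genome. miR-99 family members are known to target the growth kinase mTOR, let-7 miRNAs restrain Lin28 and Ras messages, and miR-125a is known in macrophages for its link to NF-kB signalling and to activation state.

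The mature sequences are given because the array has to separate each member from relatives that carry the same seed (bases 2 to 8, in capitals), the stretch that chiefly pairs with targets. They are from RefSeq on GRCm38.p6, written 5′ to 3′.
miR-99b-5p: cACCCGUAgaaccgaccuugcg
miR-99a-5p: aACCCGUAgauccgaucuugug
let-7e-5p: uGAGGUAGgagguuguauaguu
let-7a-5p: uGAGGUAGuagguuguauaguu
let-7c-5p: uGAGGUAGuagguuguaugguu
miR-125a-5p: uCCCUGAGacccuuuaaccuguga
miR-125b-5p: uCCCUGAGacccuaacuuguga
The members lie on the plus strand at chr17:17830194-17830215 (miR-99b-5p), chr17:17830366-17830387 (let-7e-5p) and chr17:17830817-17830840 (miR-125a-5p). The 3 mature sequences span 647 bases, with 150 bases between miR-99b-5p and let-7e-5p and 429 between let-7e-5p and miR-125a-5p. Of the relatives on the array, 2 of 2 share the seed of miR-99b-5p, 9 of 9 that of let-7e-5p and 2 of 2 that of miR-125a-5p. The other sequences shown belong to the paralogous cluster on chromosome 16 (miR-99a-5p, let-7c-5p and miR-125b-5p) and to let-7a-5p, the nearest neighbour of let-7e-5p.

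Each member was read by 2 probes. The probes of let-7e-5p paired with a stretch that differed from let-7a-5p by 1 base, so the array separates those miRNAs less well than the others. The stretches paired by the probes of miR-99b-5p and miR-125a-5p differed from every seed relative by at least 3 bases, counted as substitutions and gaps. Signals were scaled to the 75th percentile of the miRNAs detected on all arrays (relative signal, where 1 is that percentile). On this scale the group means were 4.33 to 5.66 for let-7a-5p and 0.319 to 0.438 for let-7e-5p, each on its own probes. Whether let-7a-5p added to the signal of let-7e-5p was not tested.

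Every array held 49880 miRNA spots, between 206 and 256 miRNAs were called detected on each of them, and the percentile used for scaling lay at 427 to 654 intensity units. The miRNAs of blood and macrophage lineage on the marker list (miR-223-3p, miR-142a-3p and miR-142a-5p) were detected on 16 of 16 arrays. So was miR-21a-5p, which was listed with them. Of 12 miRNAs that mark other cell types, 11 were detected on no array, and the muscle miRNA miR-206-3p was detected on 11 with relative signals of 0.0323 to 0.0795 over the 16 arrays. Media 3 stood apart most, with a median correlation of 0.874 with the other Media arrays, and results that rest on it are given with and without it. Media 1 and Media 2 were next at 0.92 each, followed by Th2_IL33 array 2 at 0.945 with its own group. Media 2 also had the fewest detected miRNAs (206), the most outlier spots (3929) and the lowest scaling percentile (427).

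IL-33 went with higher levels of all 3 cluster miRNAs, by 1.29-fold to 1.44-fold when both growth conditions were averaged. In medium-grown cells the difference was smaller without Media 3. Normexp, another way to remove background that here also added 50 intensity units to each spot, shrank the difference in both growth conditions. Bulk RNA of a culture was read, so a larger share of responding cells and a higher level in each cell cannot be told apart. No member rose with growth in Th2 cytokines, while 4 of 12 tested relatives with the same seeds did, beside 8.66% of all miRNAs. Fewer relatives were called under some other settings, and more under some when IL-33 was present. No member passed the adjusted threshold of the test across all 231 miRNAs, and the member nearest to it was miR-125a-5p. The within-array ratio of each member to its seed relatives separated IL-33 from unstimulated arrays for all 3. This ratio was devised after the values had been seen and was computed for the members alone. With normexp it was called for let-7e-5p alone.

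miR-125a-5p had relative signals of 0.197, 0.221, 0.157 and 0.197 on Th2_IL33 arrays 1 to 4, against 0.131, 0.142, 0.134 and 0.135 on Th2 arrays. Every Th2_IL33 array was above every Th2 array. In medium-grown cells it had 0.173, 0.200, 0.214 and 0.221 in Media_IL33, against 0.153, 0.144, 0.0936 and 0.195 in Media. The Media_IL33 and Media arrays overlapped, because Media 4 was above Media_IL33 array 1, while Media 3 was the lowest of all 16 arrays. The group means were 0.193 ± 0.0267 in Th2_IL33 and 0.135 ± 0.00472 in Th2, and 0.202 ± 0.0214 in Media_IL33 and 0.146 ± 0.0416 in Media (SD, n = 4 each).

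let-7e-5p, the let-7 family member, had 0.436, 0.432, 0.358 and 0.399 on Th2_IL33 arrays, against 0.312, 0.326, 0.316 and 0.321 on Th2 arrays. Here too every Th2_IL33 array was above every Th2 array, and the Th2 arrays lay close together. In medium-grown cells it had 0.379, 0.446, 0.469 and 0.457 in Media_IL33, against 0.395, 0.360, 0.203 and 0.432 in Media. Media_IL33 array 1 was below Media arrays 1 and 4, so the groups overlapped. The group means were 0.406 ± 0.0365 in Th2_IL33 and 0.319 ± 0.00577 in Th2, and 0.438 ± 0.0406 in Media_IL33 and 0.347 ± 0.101 in Media (SD, n = 4 each).

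miR-99b-5p, whose signal lay close to background, had 0.0793, 0.0932, 0.0592 and 0.0748 on Th2_IL33 arrays, against 0.0563, 0.0596, 0.0552 and 0.0386 on Th2 arrays. Th2_IL33 array 3 was just below Th2 array 2, so the groups overlapped by that pair. In medium-grown cells it had 0.0855, 0.0811, 0.0993 and 0.106 in Media_IL33, against 0.0639, 0.0717, 0.0405 and 0.0954 in Media. Only Media 4 reached into the range of Media_IL33. The group means were 0.0766 ± 0.0140 in Th2_IL33 and 0.0524 ± 0.00943 in Th2, and 0.0929 ± 0.0115 in Media_IL33 and 0.0679 ± 0.0226 in Media (SD, n = 4 each).

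**Figure D1:**
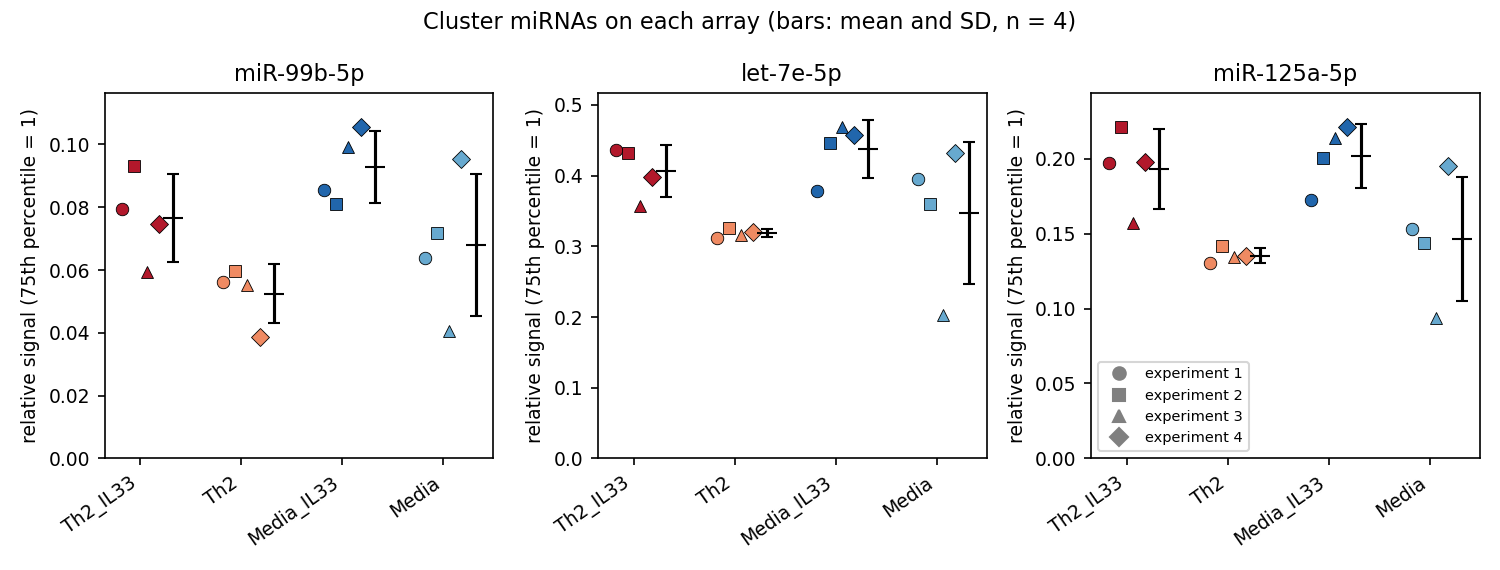
Relative signal (1 is the 75th percentile of the miRNAs detected on all arrays) of the 3 cluster miRNAs on each of 16 arrays, by group, with symbols for the experiment and bars for the mean and SD of 4 arrays. The Th2_IL33 arrays lie above the Th2 arrays for let-7e-5p (0.358 to 0.436 against 0.312 to 0.326) and miR-125a-5p, and Media 3 is the lowest Media array for each member.

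For order, each member had its highest group mean in Media_IL33, then Th2_IL33, Media and Th2. Neighbours in that order, Media_IL33 with Th2_IL33 and Media with Th2, did not pass the adjusted threshold in the fits below, and Th2_IL33 was not set against Media. The same direction was seen before scaling: let-7e-5p had 188 to 247 intensity units in Th2_IL33 against 167 to 175 in Th2, and 248 to 289 in Media_IL33 against 124 to 245 in Media.

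In Th2-grown cells the log2 difference with IL-33 was 0.50 ± 0.18 for miR-125a-5p, 0.35 ± 0.19 for let-7e-5p and 0.55 ± 0.23 for miR-99b-5p (SE, limma fit of 16 arrays). The limma adjusted p was 0.658 for miR-125a-5p and 1 for the other 2, and the unadjusted values were 0.0142, 0.0817 and 0.0290 in the same order (2.60% of all miRNAs had an unadjusted p under 0.05). Each member was higher with IL-33 in 4 of 4 experiments. Of all 231 miRNAs 1.73% passed the adjusted threshold of 0.05, and 3.90% had IL-33 arrays that all lay above the others, as 2 of the 3 members did. An exact permutation test (two-sided) exchanged the 4 Th2_IL33 arrays and the 4 Th2 arrays freely, without keeping them paired by experiment. This exact permutation test gave p = 0.0286 for let-7e-5p and for miR-125a-5p, the smallest such free exchange allows, and 0.0571 for miR-99b-5p. None of these values was adjusted over all miRNAs.

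In medium-grown cells the log2 difference with IL-33 was 0.51 ± 0.18 for miR-125a-5p, 0.39 ± 0.19 for let-7e-5p and 0.51 ± 0.23 for miR-99b-5p (SE). The limma adjusted p was 0.353, 0.846 and 0.779 in that order, while 1.73% of all miRNAs passed. miR-125a-5p and miR-99b-5p were higher in 4 of 4 experiments and let-7e-5p in 3 of 4. Without Media 3 the differences were 0.31 for miR-125a-5p, 0.15 for let-7e-5p and 0.28 for miR-99b-5p, so this array alone carried much of their size. Its part in the result beyond these values was not tested.

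Averaged over both growth conditions, the IL-33 difference was 0.50 ± 0.13 for miR-125a-5p (1.42-fold), 0.37 ± 0.13 for let-7e-5p (1.29-fold) and 0.53 ± 0.16 for miR-99b-5p (1.44-fold; SE). With normexp these differences were 0.15, 0.19 and 0.060. Without normexp the limma adjusted p was 0.0519 for miR-125a-5p, 0.354 for let-7e-5p and 0.165 for miR-99b-5p. With the experiment number as a block in the fit, miR-125a-5p passed at an adjusted p of 0.0382, and the other 2 did not pass (0.329 and 0.210). The fit without the block called 5 of 231 miRNAs (2.16%), all higher with IL-33, and the fit with the block called 7 (3.03%). At an unadjusted limma p below the threshold of 0.05 stood 4.76% of all miRNAs and each of the 3 members, which ranked 6 (miR-125a-5p), 7 (miR-99b-5p) and 9 (let-7e-5p) of 231.

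The adjusted p of miR-125a-5p lay so near the threshold that single arrays moved it across. Leaving out 1 array at a time gave adjusted p values of 0.00930 (without Media 4) to 0.134, with log2 differences of 0.40 to 0.58. The member also passed without Media 3 (0.40, limma adjusted p = 0.0292), without Media_IL33 array 1 (0.0475) and without Th2_IL33 array 3 (0.0315). Counts over all 231 miRNAs rose in the same fits, from 5 as reported to 8 without Media 4. They were 6 without Media 3, without Media_IL33 array 1 and without Th2_IL33 array 3. miR-99b-5p passed without Media 4 (0.62, limma adjusted p = 0.0302), and let-7e-5p passed in no such fit.

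The difference between the 2 IL-33 responses, that in Th2-grown minus that in medium-grown cells, was -0.0030 ± 0.26 for miR-125a-5p, -0.040 ± 0.26 for let-7e-5p and 0.040 ± 0.32 for miR-99b-5p (SE). The limma adjusted p was 0.995 for each, and 0 of 231 miRNAs passed, with 2.16% at an unadjusted p below 0.05. Without Media 3 it was 0.20 for miR-125a-5p, 0.20 for let-7e-5p and 0.27 for miR-99b-5p (limma adjusted p of 0.745, 0.661 and 0.756), and with array weights 0.31, 0.26 and 0.37 (0.428 each). The 95% intervals of this difference ran from -0.55 to 0.54 for miR-125a-5p, from -0.60 to 0.52 for let-7e-5p and from -0.65 to 0.73 for miR-99b-5p, so a difference as large as the response itself would not be seen at this number of arrays.

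The arrays came from 2 slides, and all Th2_IL33 arrays were on slide 2, so within-slide values are given. On slide 2, the 4 Th2_IL33 arrays against the only Th2 array there gave 0.51 for miR-125a-5p, 0.34 for let-7e-5p and 0.97 for miR-99b-5p. In medium-grown cells, slide 1 (2 Media_IL33 and 3 Media arrays) gave 0.66, 0.55 and 0.65 in that order, and slide 2 (2 Media_IL33 and 1 Media array) gave 0.28, 0.058 and 0.38. With slide as a term in the limma fit, the averaged IL-33 difference was 0.53 for miR-125a-5p (adjusted p = 0.153), 0.35 for let-7e-5p (0.997) and 0.68 for miR-99b-5p (0.103).

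Growth in Th2 cytokines without IL-33 gave log2 differences, Th2 minus Media, of -0.066 ± 0.18 for miR-125a-5p, -0.067 ± 0.19 for let-7e-5p and -0.33 ± 0.23 for miR-99b-5p (SE). The limma adjusted p was 0.911, 0.911 and 0.433, while 22 of 231 miRNAs (9.52%) passed, 20 higher (8.66%) and 2 lower (0.866%). With IL-33 present, Th2_IL33 minus Media_IL33, the differences were -0.069, -0.11 and -0.29 in the same order, with limma adjusted p values of 0.791, 0.689 and 0.476 and again 9.52% of all miRNAs called (8.23% higher).

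These small Th2 differences also rest on Media 3. Without it, Th2 minus Media was -0.27 for miR-125a-5p, -0.31 for let-7e-5p and -0.55 for miR-99b-5p, and none passed. A fit with array weights, which gives discordant arrays less influence, called all 3 members lower in Th2 than in Media: -0.37 for miR-125a-5p (limma adjusted p = 0.0314), -0.34 for let-7e-5p (0.0229) and -0.58 for miR-99b-5p (0.0133). That fit also called 14.3% of all miRNAs lower, against 0.866% with equal weights, so it moved many other miRNAs too. It reduced the IL-33 difference in medium-grown cells to 0.21, 0.13 and 0.09 in the same order, and in Th2-grown cells it called miR-125a-5p (0.53, adjusted p = 0.00399) and let-7e-5p (0.39, 0.0148), with 2.60% of all miRNAs called.

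**Figure D2:**
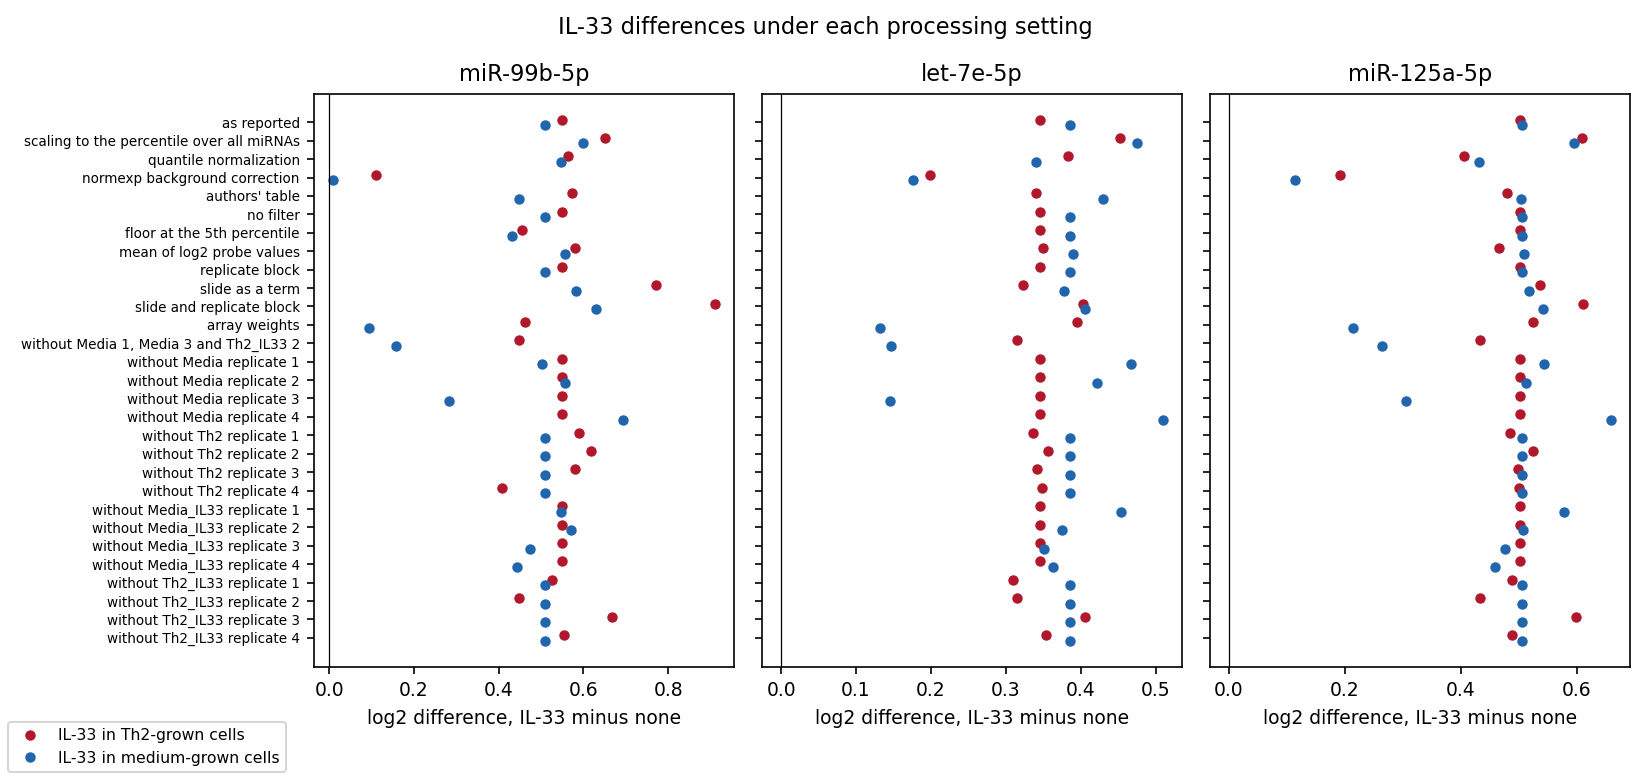
Log2 difference (IL-33 minus no IL-33) of each cluster miRNA under the reported fit and each other processing setting, in Th2-grown cells (red) and medium-grown cells (blue). All points are above 0, the medium-grown difference shrinks without Media 3 (0.15 for let-7e-5p), and both shrink with normexp background correction.

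How near a member lay to background limits its fold. let-7e-5p was well above background with both probes on 16 of 16 arrays. For miR-125a-5p 1 probe was so on 16 arrays and the other on 8, and their averaged IL-33 differences were 0.52 and 0.45. For miR-99b-5p 1 probe was well above background on 10 arrays and the other on 0, and their IL-33 differences were 0.44 and 0.83, so the size depends on the probe.

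miR-99b-5p was well above background on 4 of 4 Th2_IL33 and 0 of 4 Th2 arrays, and on 4 of 4 Media_IL33 and 2 of 4 Media arrays. With each array that was not well above background set to the higher of its own signal and the lowest signal well above background there, the fold with IL-33 was 1.46 in Th2-grown and 1.39 in medium-grown cells. This is no firm lower limit. In Th2-grown cells the log2 difference was 0.45 on the probe that was at times well above background, 0.41 without Th2 array 4 and 0.11 with normexp.

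Averaged over both growth conditions, the relatives with the same seeds had IL-33 differences near 0. Of 13 on the array 12 could be tested (miR-351-5p was detected on no array). Over both growth conditions their IL-33 differences ran from -0.11 to 0.11 with a median of 0.012, and 0 of 12 passed (2.16% of all miRNAs did), beside a median of -0.0017 over all 231. The nearest relatives stood at 0.0027 ± 0.11 (miR-125b-5p, against 0.50 for miR-125a-5p), 0.027 ± 0.11 (let-7a-5p, against 0.37 for let-7e-5p) and 0.038 ± 0.11 (miR-99a-5p, against 0.53 for miR-99b-5p; SE). Scaling to the percentile over all miRNAs moved the relatives' median to 0.11 and that of all miRNAs to 0.091, and again 0 of 12 passed. In Th2-grown cells alone the relatives ran from -0.12 to 0.20, and the highest was let-7i-5p. Its Th2_IL33 arrays (3.57 to 3.99) all lay above its Th2 arrays (2.99 to 3.49), as was so for 3.90% of all miRNAs and for no other tested relative.

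With Th2 growth some of the relatives rose and no member did. Of the 12 relatives 4 rose in Th2 relative to Media, namely miR-99a-5p (1.08 ± 0.16, limma adjusted p = 0.000177), miR-100-5p (1.01 ± 0.18, 0.00124), miR-125b-5p (0.75 ± 0.16, 0.00495) and let-7c-5p (0.65 ± 0.15, 0.00838), and none fell (8.66% of all miRNAs were called higher). With IL-33 present the same 4 were called, beside 8.23% of all miRNAs. Fewer were called under other settings: 2 without and 1 with IL-33 when scaled over all miRNAs, 3 and 3 with quantile normalization, 3 and 2 in the authors' deposited table, and 3 and 3 with mean log2 probe values. let-7a-5p had 0.40 ± 0.16 (limma adjusted p = 0.127). The genes of miR-99a-5p, let-7c-5p and miR-125b-5p form the paralogous cluster on chromosome 16. let-7c-5p and miR-125b-5p have a second gene elsewhere, and these arrays do not tell the copies of a mature miRNA apart.

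**Figure D3:**
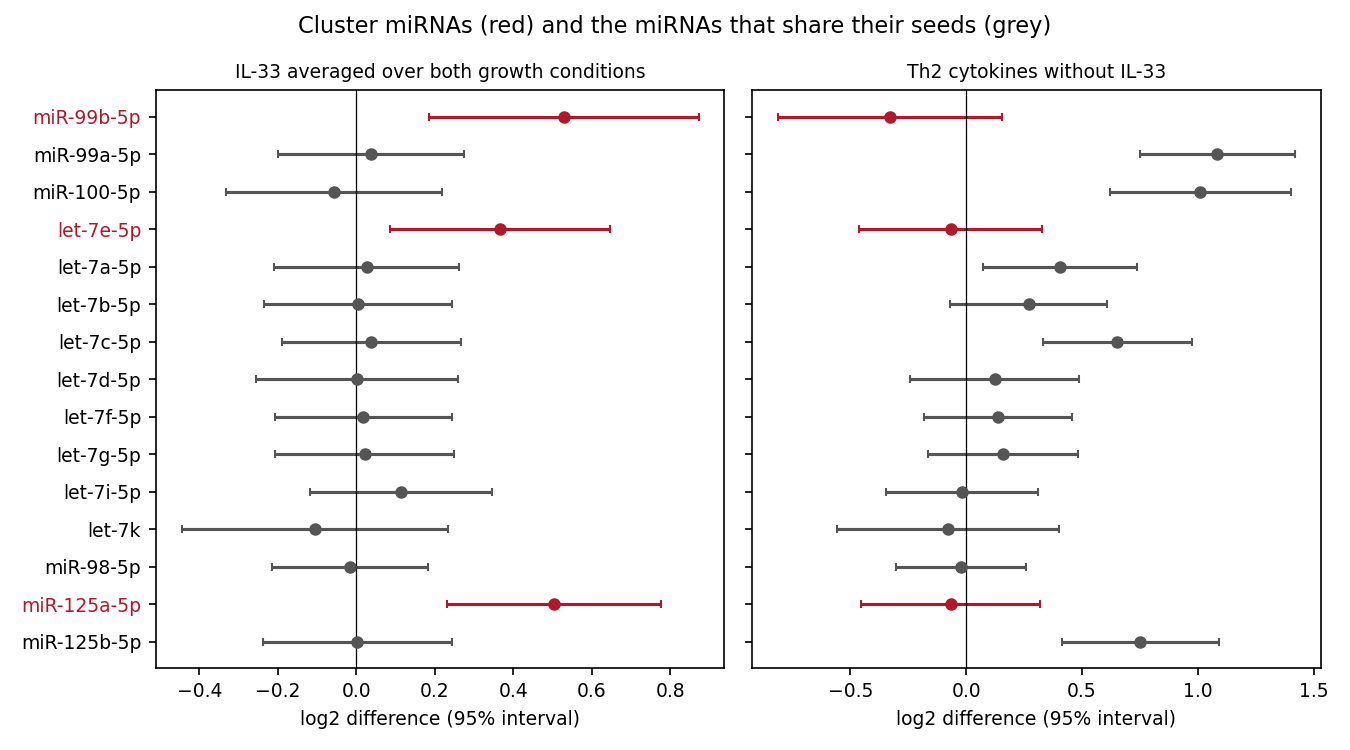
Log2 differences with 95% intervals (limma, 16 arrays) of the cluster miRNAs (red) and of their tested seed relatives (grey), for IL-33 averaged over both growth conditions (left) and for Th2 cytokines without IL-33 (right). On the left the members lie at 0.37 to 0.53 and the relatives at -0.11 to 0.11. On the right miR-99a-5p, miR-100-5p, miR-125b-5p and let-7c-5p lie at 0.65 to 1.08 and no member is above 0.

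Each member was then set against the mean log2 signal of its tested seed relatives on the same array. This ratio does not depend on the scaling of the array, and its absolute value has no meaning, since different probes are involved. It was added after the values had been seen. For miR-125a-5p the log2 ratio to miR-125b-5p was -4.46 to -4.28 in Th2_IL33 against -4.99 to -4.59 in Th2, and -3.62 to -3.43 in Media_IL33 against -4.25 to -3.80 in Media. For let-7e-5p against 9 let-7 relatives it was -2.26 to -1.99 in Th2_IL33 against -2.48 to -2.39 in Th2, and -1.83 to -1.74 in Media_IL33 against -2.40 to -1.98 in Media. For miR-99b-5p against miR-99a-5p and miR-100-5p it was -4.39 to -4.11 in Th2_IL33 against -5.08 to -4.69 in Th2, and -3.07 to -2.86 in Media_IL33 against -3.78 to -3.08 in Media.

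Among Media arrays the ratio varied less than the level did: the SD of log2 was 0.18 for the ratio of let-7e-5p and 0.49 for its level. Among Th2 arrays the ratio varied more for let-7e-5p (0.038 against 0.026) and miR-125a-5p (0.18 against 0.050). For miR-99b-5p it varied less there (0.18 against 0.29). In each growth condition every IL-33 array was above every array without IL-33 for all 3 ratios, Media 3 included. No such ratio was computed for other miRNAs, so the share of them that would separate in this way is not known. The averaged shift with IL-33 was 0.50 for miR-125a-5p, 0.35 for let-7e-5p and 0.54 for miR-99b-5p on the log2 scale. An exact permutation test within growth conditions (two-sided, 4900 arrangements) gave p = 0.000408 for each after adjustment over the 3 ratios, the smallest it can give. With arrays exchanged only within an experiment the exact permutation p was 0.00781 for each, and with arrays exchanged only within a slide it was 0.00667. Each is again the smallest its scheme can give. Within slides the Th2 arrays on slide 1 were never exchanged, since all Th2_IL33 arrays were on slide 2. Leaving out any 1 array kept the shift at 0.47 to 0.54 for miR-125a-5p, 0.32 to 0.39 for let-7e-5p and 0.48 to 0.60 for miR-99b-5p. Under normexp the shift was 0.14 for miR-125a-5p (exact permutation p = 0.0771), 0.17 for let-7e-5p (0.00122) and 0.073 for miR-99b-5p (0.299). For the dimmer members the call thus depends on this setting, which changes the background step and adds an offset of 50 intensity units to each spot. The separate parts of these 2 changes were not tested.

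Growth in Th2 cytokines lowered the same ratios, averaged over arrays with and without IL-33. The shift was -0.80 for miR-125a-5p, -0.28 for let-7e-5p and -1.34 for miR-99b-5p, with exact permutation p values of 0.000612, 0.000816 and 0.000612 after adjustment. The relatives moved by 0.74, 0.19 and 1.03 and the members by -0.068, -0.087 and -0.31 in the same order, so most of the shift came from the relatives. For let-7e-5p it was not called with quantile normalization (-0.16, exact permutation p = 0.246) or in the authors' deposited table (-0.12, 0.455).

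**Figure D4:**
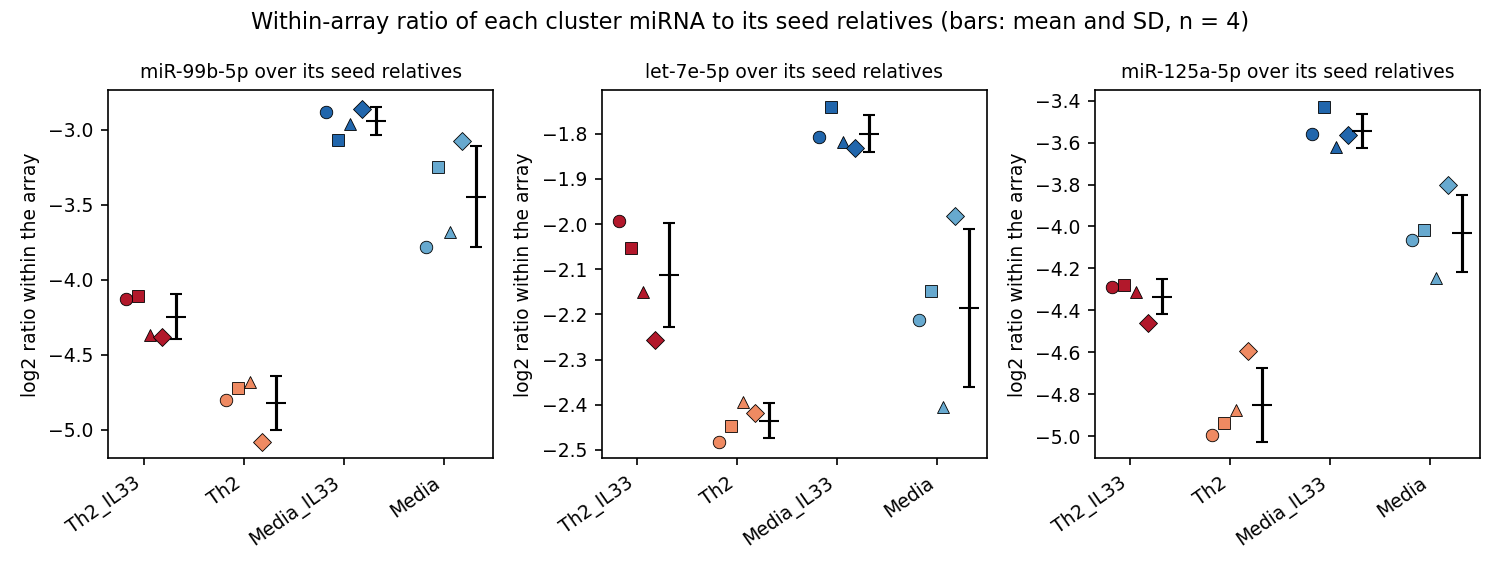
Log2 ratio of each cluster miRNA to the mean of its tested seed relatives on the same array, by group, with symbols for the experiment as in the plot of relative signals and bars for the mean and SD of 4 arrays. IL-33 arrays lie above unstimulated arrays of the same growth condition for each member (for let-7e-5p, -2.26 to -1.99 in Th2_IL33 against -2.48 to -2.39 in Th2), and Th2-grown arrays lie lower for miR-99b-5p and miR-125a-5p.

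Among the members themselves, the IL-33 shift of miR-125a-5p over let-7e-5p was 0.14 on the log2 scale (exact permutation test within growth conditions, two-sided, p = 0.0159 after adjustment over 3 pairs). That of miR-99b-5p over let-7e-5p was 0.16 (adjusted p = 0.187, exact permutation) and that of miR-125a-5p over miR-99b-5p was -0.025 (0.810). The first of these was not called with quantile normalization (0.058, exact permutation p = 0.361), in the authors' deposited table (0.11, 0.179) or without Media_IL33 array 4 (0.13, 0.0563), and it turned to -0.035 with normexp. The data therefore do not settle whether the members moved by unequal amounts.

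Within groups the 3 members went up and down together from array to array. Deviations from the group mean had r = 0.95 and Spearman's rho = 0.81 over 16 arrays for miR-125a-5p with let-7e-5p (permutation p = 0.000480 and 0.0051, adjusted over 3 pairs). miR-125a-5p with miR-99b-5p had r = 0.87 and rho = 0.73 (permutation p = 0.0019 and 0.0081), and miR-99b-5p with let-7e-5p had r = 0.79 and rho = 0.55 (permutation p = 0.0053 and 0.041). Without the 2 arrays farthest from the median, r was 0.85, 0.65 and 0.72 in that order. The arrays left out were Media 3 and Media 4 for the pairs with miR-125a-5p, and Media 3 and Th2 array 4 for miR-99b-5p with let-7e-5p. All 3 members were low on Media 3 and high on Media 4.

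This joint variation was shared with other miRNAs. The mean deviation of the members correlated at r = 0.87 with that of miR-125b-5p, 0.87 with let-7a-5p and 0.75 with miR-99a-5p, relatives whose own IL-33 differences were near 0. It was 0.17 for miR-142a-3p. Deviations on one array share its labelling, hybridisation and scaling, and their part was not tested.

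**Figure D5:**
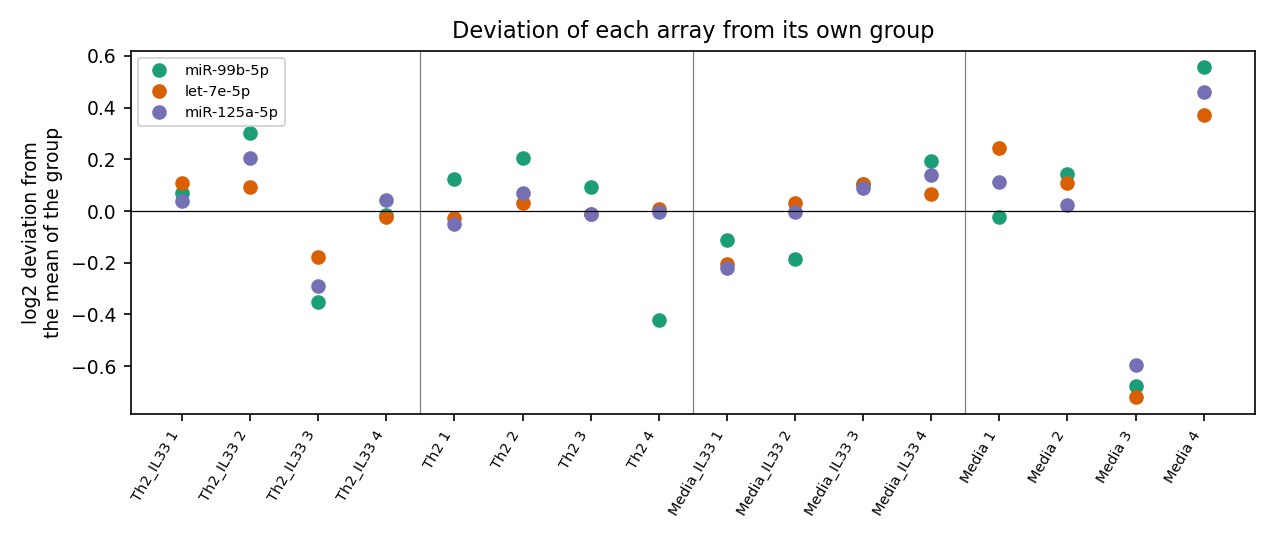
Log2 deviation of each cluster miRNA from the mean of its own group on each of 16 arrays. The 3 members share the sign of the deviation on Media 3 and Media 4, while on Th2 array 4 miR-99b-5p alone is far below its group.

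No opposite strand of these hairpins passed the test for IL-33, and in the reported fit no member did either. miR-99b-3p was detected on 16 of 16 arrays and had an averaged IL-33 difference of 0.086 ± 0.15 (SE, limma adjusted p = 0.997). miR-125a-3p was detected on 12 arrays, with relative signals of 0.116 ± 0.0102 in Th2_IL33 and 0.0994 ± 0.00424 in Th2, and 0.127 ± 0.00802 in Media_IL33 and 0.112 ± 0.0359 in Media (SD, n = 4 each). Its averaged difference was 0.24 ± 0.14 (SE, limma adjusted p = 0.997), and it was well above background on 1 of 4 Th2_IL33, 0 of 4 Th2, 2 of 4 Media_IL33 and 1 of 4 Media arrays. In Th2-grown cells the difference of miR-125a-3p was 0.23, and every Th2_IL33 array was above every Th2 array (so for 3.90% of all miRNAs). It was higher with IL-33 in 4 of 4 experiments there and in 2 of 4 in medium-grown cells. let-7e-3p was detected on 0 of 16 arrays.

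The tested miRNAs whose level followed the mean log2 signal of the 3 members most closely over the 16 arrays were miR-483-5p (r = 0.81, rho = 0.72), miR-125a-3p (0.79, 0.67), miR-221-3p (0.75, 0.70), miR-222-5p (0.73, 0.56) and miR-21a-3p (0.73, 0.73). They are given as a description, being the highest of 228, and the arrays share group differences and hybridisation. The opposite strand of miR-125a-5p is among them, and the strand opposite miR-99b-5p is not (r = 0.13). Of the seed relatives the closest was let-7i-5p (r = 0.59), while miR-99a-5p had r = -0.027.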

How the data were processed

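Total RNA was hybridised to 1-colour (Cy3) Agilent arrays, 16 in all, 4 per group. Per the file headers, Agilent Feature Extraction 10.7.3.1 wrote the deposited scanner files, whose processed spot intensity has background and spatial trend removed and no normalization between arrays. A deposited table of probe intensity values on a linear scale, which the authors made with Partek 6.6 and RMA per the submitters' processing notes, served as an alternative. Control and outlier spots were left out, spots were averaged per probe, probes were summed per miRNA, and the sums were divided by the array's 75th percentile, taken over 178 miRNAs detected on every array. Values below the 1st percentile of detected signals (0.0353) were set to it, and log2 was taken.

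limma 3.58.1 in R 4.3.3 (with data.table, version 1.17.8) fitted a mean for each group to 16 arrays, with p values adjusted by Benjamini-Hochberg over the 231 miRNAs that some group had as detected on each of its 4 arrays (threshold 0.05). Ratios and correlations were tested by permutation in Python 3.11.15. On simulated data for IL-33 in medium-grown cells with 40 of 231 miRNAs changed, the fit recovered 10 at a log2 change of 0.5, 35 at 1 and 35 at 2. A change of the members' size is thus often missed, and the number of arrays limits the precision.

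Replicate numbers come from the labels, which tie each to an independent experiment and so pair the arrays. Same-numbered arrays deviated together with a mean r of -0.096, -0.071, 0.34 and 0.20 for numbers 1 to 4. The labels do not say that experiments used separate stocks of cells, so p values measure the spread between these experiments. The members and lists were chosen with earlier results of these data known. Named are the members, their opposite strands, their seed relatives with values for a few, and the 5 miRNAs most like the members. Mature sequences and positions are from RefSeq tables for mouse on GRCm38.p6.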

Additional observations from a re-analysis of the deposited data

How the results depend on the processing

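All IL-33 differences of the 3 members, within each growth condition and averaged, were positive under the 12 alternatives and with each array left out. In Th2-grown cells the lowest were those with normexp, 0.11 for miR-99b-5p, 0.20 for let-7e-5p and 0.19 for miR-125a-5p. In medium-grown cells normexp gave 0.010, 0.18 and 0.11 in that order, and for the average 0.060, 0.19 and 0.15. For IL-33 in Th2-grown cells, array weights called let-7e-5p (0.39, limma adjusted p = 0.0148) and miR-125a-5p (0.53, 0.00399). The exact permutation test in Th2-grown cells, unadjusted, gave p = 0.0286 at the reported 0.35 and 0.50. For the average, miR-125a-5p was called with the replicate block (0.50, 0.0382) and with array weights (0.37, 0.0123), and miR-99b-5p with slide and replicate block together (0.77, 0.0354). The replicate block alone changed no other call. With array weights Th2 minus Media was called for miR-99b-5p (-0.58), let-7e-5p (-0.34) and miR-125a-5p (-0.37), and for miR-99b-5p also without Media 1, Media 3 and Th2_IL33 array 2 (-0.68, 0.0423).

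Th2 differences near 0 changed sign without being called. Th2 minus Media was 0.0094 for let-7e-5p and 0.0046 for miR-125a-5p in the authors' deposited table. Th2_IL33 minus Media_IL33 was 0.039 for miR-99b-5p and 0.035 for miR-125a-5p with normexp, and 0.0031 for miR-125a-5p with slide and replicate block. The difference between the IL-33 responses of let-7e-5p was 0.042 with quantile normalization, 0.023 with normexp, 0.26 with array weights and 0.17 without the 3 arrays named above. For miR-125a-5p it was 0.014 with scaling over all miRNAs, 0.078 with normexp, 0.020 with slide, 0.069 with slide and replicate block, 0.31 with array weights and 0.17 without the 3 arrays.

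Leaving out 1 array gave Th2 minus Media of -0.55 to -0.14 for miR-99b-5p, -0.31 to 0.056 for let-7e-5p and -0.27 to 0.087 for miR-125a-5p. Th2_IL33 minus Media_IL33 ran from -0.39 to -0.17, -0.18 to -0.048 and -0.14 to 0.027 in that order, and the difference between the IL-33 responses from -0.15 to 0.27, -0.16 to 0.20 and -0.16 to 0.20. The averaged IL-33 difference ran from 0.42 to 0.62, 0.25 to 0.43 and 0.40 to 0.58. Those in medium-grown cells ran from 0.28 to 0.69, 0.15 to 0.51 and 0.31 to 0.66, and those in Th2-grown cells from 0.41 to 0.67, 0.31 to 0.41 and 0.43 to 0.60.

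For ratios between members, miR-125a-5p over let-7e-5p was 0.058 (p = 0.361, exact permutation) with quantile normalization, 0.11 (0.179) in the authors' table, 0.12 (0.0961) with mean log2 probe values, -0.035 with normexp and 0.12 to 0.16 with 1 array left out. miR-99b-5p over let-7e-5p was -0.13 (exact permutation p = 0.0318) with normexp. miR-125a-5p over miR-99b-5p was 0.092 (exact permutation p = 0.00490) with normexp, 0.045 without the 3 arrays and -0.056 to 0.044 with 1 array left out. Over the seed relatives, the IL-33 shift was not called with normexp for miR-99b-5p (0.073) and miR-125a-5p (0.14), nor the Th2 shift of let-7e-5p with quantile normalization (-0.16) and in the authors' table (-0.12). The cause of these changes was not tested.

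Counts over all miRNAs moved most with array weights, to 64 for Th2 minus Media and 71 for Th2_IL33 minus Media_IL33, against 22 for each as reported. Normexp gave 1 for IL-33 in medium-grown cells against 4, and 2 in Th2-grown cells against 4. The signal over background limits miR-99b-5p most, since 1 of its probes never rose well above it. Without a filter, 381 miRNAs above the floor on any array were tested.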
